A study of Mus musculus with 12 samples.

Results

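The 10 genes described here are transcripts of the fetal and stretch response of the ventricle: Nppa, Nppb, Myh7, Acta1, Ankrd1, Xirp1, Xirp2, Fhl1, Rcan1 and Gdf15. They were chosen by symbol, and each matched 1 Ensembl gene among the 56647 gene rows with a value in every library. The study measured 3′ RNA of heart muscle from wild-type mice in 12 libraries of 10 mice, and asks how local NECA treatment changes gene expression in the infarcted heart. The 3 sham vehicle mice carried labels of sham and of vehicle treatment, the 3 MI mice had the left coronary artery ligated to produce a myocardial infarction (MI), and the 4 NECA-treated MI mice were infarcted hearts that received NECA locally. NECA is 5′-(N-ethylcarboxamido)adenosine, a stable analogue of adenosine that activates adenosine receptors. The sources used here do not give strain, age, the time after ligation or the position of the tissue piece. Because no vehicle is named for the MI mice, an effect of NECA and an effect of delivering it cannot be told apart.

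Before and around birth the mouse ventricle makes natriuretic peptides, β-myosin heavy chain and skeletal α-actin, and it largely replaces them with adult isoforms afterwards. A ventricle under pressure, stretch or loss of muscle switches several of these genes back on, and proteins that sit on titin springs, Z-discs and intercalated discs report the mechanical load to the nucleus. The same transcripts are abundant in healthy atria (Nppa) or skeletal muscle (Acta1 and Myh7), which makes tissue composition part of any reading of them.

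Promoter sequence is shown for the members that hold a short element long studied in this programme, the M-CAT element bound by TEAD factors. Windows from 250 bases before to 50 bases after the annotated transcription start were taken from RefSeq on GRCm38.p6, a different build from the GRCm39 of the counts, and 9 of the 10 genes matched (not Xirp1). The motif searched was CATTCC or its reverse complement GGAATG, picked after these promoters had been read. It was found in 5 of the 9 members and in 14.7% of all 32851 promoters, or in 16.6% of 27025 genes with any promoter in the table. Each line gives 30 bases, 5′ to 3′ on the strand of the gene, with the motif in capitals.
Nppb: gctcagccggcaGGAATGcagctgataaat
Myh7: ctagtgagccgtGGAATGttagagatattt
Acta1: gaagggcagcaaCATTCCttcggggcggtg
Ankrd1: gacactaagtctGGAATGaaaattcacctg
Gdf15: tcctcttccctcCATTCCcaagaggaaccc
The Nppb window lies at chr4:147985783-147985812 on the plus strand, with the motif starting 105 bases before the start site. On the minus strand lie the windows of Myh7 at chr14:54994810-54994839 (motif 201 bases before the start), Acta1 at chr8:123894804-123894833 (46 bases), Ankrd1 at chr19:36119950-36119979 (123 bases) and Gdf15 at chr8:70632215-70632244 (137 bases). Ankrd1 held another match 210 bases before its start, in the sequence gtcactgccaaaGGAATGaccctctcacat at chr19:36120037-36120066. The CArG box, the site of serum response factor, was present in 1.63% of promoters and in 2 members. These were Acta1, 73 bases before the start (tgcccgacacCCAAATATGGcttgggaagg, chr8:123894829-123894858, minus strand), and Fhl1, 102 bases before it (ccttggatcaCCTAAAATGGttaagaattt, chrX:56779571-56779600, plus strand). In Acta1 the CArG box and the M-CAT element did not overlap. These matches are letters in a window, and no binding was measured.

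The libraries used for the comparisons held 959840 to 1330259 counts each, 1 per mouse. MI mice 2 and 3 had in addition a deep 1st library of 30745429 and 27130817 counts. It is shown beside the 2nd library and enters only the alternative fits that are named as using it. Levels are counts scaled to 1000000 per library (CPM), and a count of 0 allowed 2.26 to 3.13 CPM, taken as 3 counts. Sham vehicle mouse 3, NECA-treated MI mouse 4 and MI mouse 3 stood apart in markers of other cell types. Sham vehicle mouse 3 had all 6 atrial markers (3741 CPM summed, against at most 1.5035 in the other sham vehicle mice, 9.26 to 57.3 in MI and 5.99 to 22.0 in NECA-treated MI mice), with Myl4 at 1346 and Bmp10 at 881 CPM. It also had all 6 adipocyte markers (773 CPM against 0 to 270.0 elsewhere, with Cfd at 478 and Cidec at 65.2 CPM). NECA-treated MI mouse 4 had all 12 skeletal muscle markers (573 CPM), whereas the other 3 of its group summed to 42.3 to 53.1, sham vehicle mice to at most 113 and MI mice to 35.5 to 138, with all 12 detected in MI mouse 2 too. Erythroid markers summed to 3679 CPM in sham vehicle mouse 3 and 2590 in MI mouse 2, against 731 to 1657 elsewhere, and NECA-treated MI mouse 2 also had all 6 adipocyte markers. MI mouse 3 had 14670 CPM of the 9 fibroblast and matrix markers and 1152 CPM of the 9 macrophage markers, against 831 to 6284 and 213 to 812 CPM in the other 9 mice. In bulk tissue, fewer cells of a type and less RNA per cell cannot be told apart.

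No member passed the test in any comparison, and a single mouse carried the group mean of Nppa in sham vehicle mice and of Nppa and Myh7 in MI mice. MI mouse 3 had the highest level of 7 of the 10 genes and the lowest level of 1, Xirp1. The test was edgeR's quasi-likelihood test over 9505 genes with Benjamini-Hochberg adjustment, an adjusted p under 0.05 was the threshold, and 9 of the 10 members had enough counts to be tested. MI against sham vehicle called 0 of the 9 members, where 0.0736% of all tested genes (7) were called, and 3 members and 1139 of the 9505 genes had an unadjusted p under 0.05. NECA-treated MI against MI called 0 of 9, where 0% of tested genes were called, and 1 member and 577 genes had an unadjusted p under 0.05. NECA-treated MI against sham vehicle called 0 of 9, where 0.0105% of tested genes (1) were called, and no member and 573 genes had an unadjusted p under 0.05. DESeq2 also called 0 members in each comparison, beside 8, 0 and 6 of the 9505 genes. With it, 2, 1 and 1 members had an unadjusted p under 0.05, beside 693, 266 and 283 of all genes. Limma called 0 members and 0 genes in each comparison, and 2, 1 and 0 members had an unadjusted p under 0.05, beside 901, 512 and 475 genes. DESeq2 gave no adjusted p for Nppa and Myh7 in any comparison, so its result does not cover these genes. With the deep libraries summed in or used instead, NECA-treated MI against MI had 4 members below that unadjusted p, beside 1060 and 1064 genes. No member passed in either fit, and 1 gene did in each. The 3 comparisons share their groups, so their values are given side by side and are not independent of one another.

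**Figure D1:**
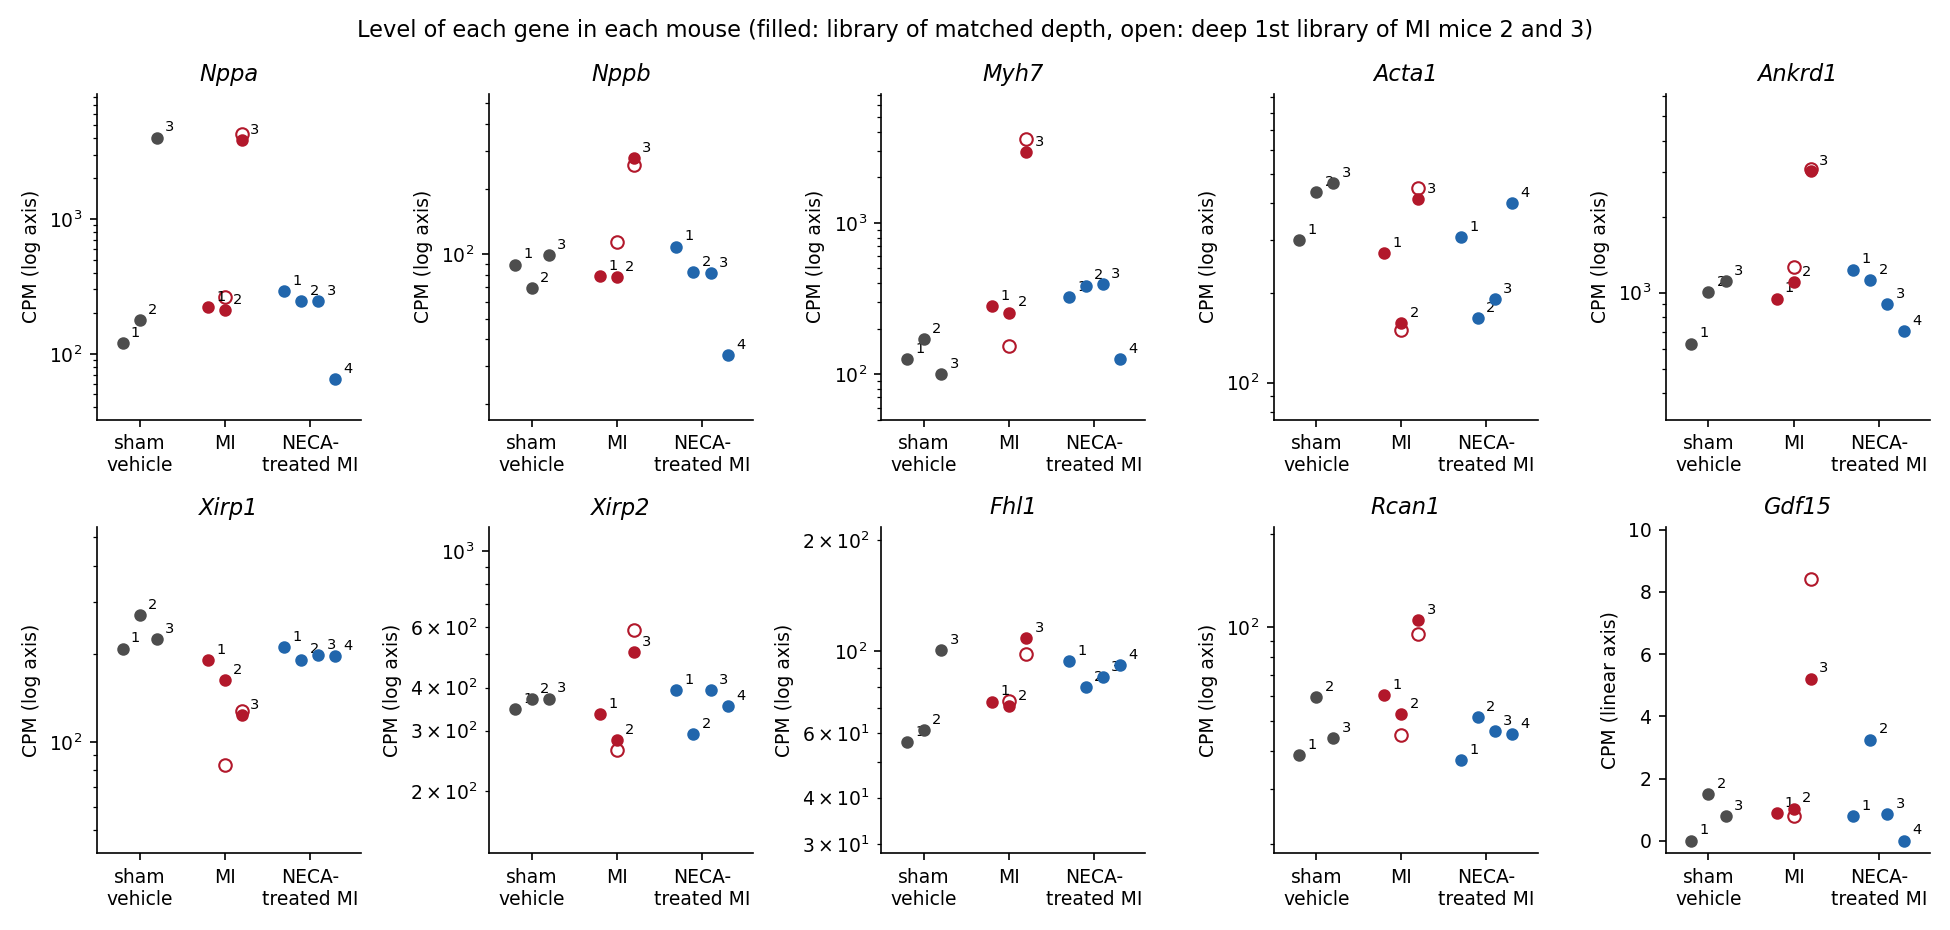
CPM of each of the 10 genes (log axis, linear for Gdf15) in every mouse, numbered within its group. Filled points are the libraries used for the main comparisons and open points the deep 1st libraries of MI mice 2 and 3. MI mouse 3 lies highest for 7 genes, sham vehicle mouse 3 shares its high Nppa, and NECA-treated MI mouse 4 has the lowest Nppa (65.0 CPM) and Nppb (33.9 CPM).

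The natriuretic hormones come first. Nppa (ENSMUSG00000041616) encodes atrial natriuretic peptide, the hormone that atria store and that strained ventricle makes. In sham vehicle mice 1, 2 and 3 it was measured at 120.1, 177 and 4008 CPM. The MI mice had 223, 209.9 and 3831 CPM, and the deep libraries of MI mice 2 and 3 gave 263 and 4254 CPM. The NECA-treated MI mice had 290.2, 246, 246 and 65.0 CPM. Thus 2 mice, 1 sham and 1 infarcted, stood about 17 to 18 times above the median of the other mice (ratios 18.0 and 17.2), and the groups overlapped in every comparison.

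In sham vehicle mouse 3, high Nppa came with high atrial markers. In MI mouse 3 it did not: Myl4, Myl7, Sln and Bmp10 were at 0 in its 2nd library, and 56.3 of its 57.3 CPM of atrial markers came from Dkk3. In the deep library of the same mouse, Sln and Bmp10 were also at 0 among its 27130817 counts, and Myl4 was at 3.13 CPM. Whether atrial tissue made up the Nppa of sham vehicle mouse 3 was not tested. The fitted log2 fold change of Nppa was -0.06 (SE 1.54, adjusted p = 0.992) in MI against sham vehicle, -2.62 (SE 1.49, adjusted p = 0.835) for NECA-treated MI against MI and -2.68 (SE 1.49, adjusted p = 0.839) in NECA-treated MI against sham vehicle. Leaving out sham vehicle mouse 3 gave 2.97 and 0.35 for the comparisons with sham vehicle (adjusted p = 0.393 and 0.962). Leaving out MI mouse 3 gave -2.59 in MI against sham vehicle and -0.09 in NECA-treated MI against MI (adjusted p = 0.822 and 0.999).

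Nppb (ENSMUSG00000029019) encodes brain natriuretic peptide, mainly a ventricular hormone, and is the neighbour of Nppa on the same chromosome. Its levels were 89.2, 69.2 and 99.0 CPM in sham vehicle mice and 79.1, 78.2 and 278 CPM in MI mice. The NECA-treated MI mice had 108, 82.1, 81.3 and 33.9 CPM. MI mouse 3 was 2.57 times above the next mouse, the other MI mice lay within the sham range in these libraries (the deep library of MI mouse 2 gave 114 CPM, above it), and sham vehicle mouse 3, with its high Nppa, was 1.22 times the median of the other mice for Nppb. The log2 fold changes were 0.63 (SE 0.53, adjusted p = 0.684) in MI against sham vehicle and -0.85 (SE 0.50, adjusted p = 0.835) in NECA-treated MI against MI. Without MI mouse 3 they were -0.13 and -0.09 (adjusted p = 0.982 and 0.999). Against sham vehicle, NECA-treated MI mice differed by -0.22 (SE 0.51, adjusted p = 0.980), and by 0.01 without NECA-treated MI mouse 4 (adjusted p = 0.999).

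**Figure D2:**
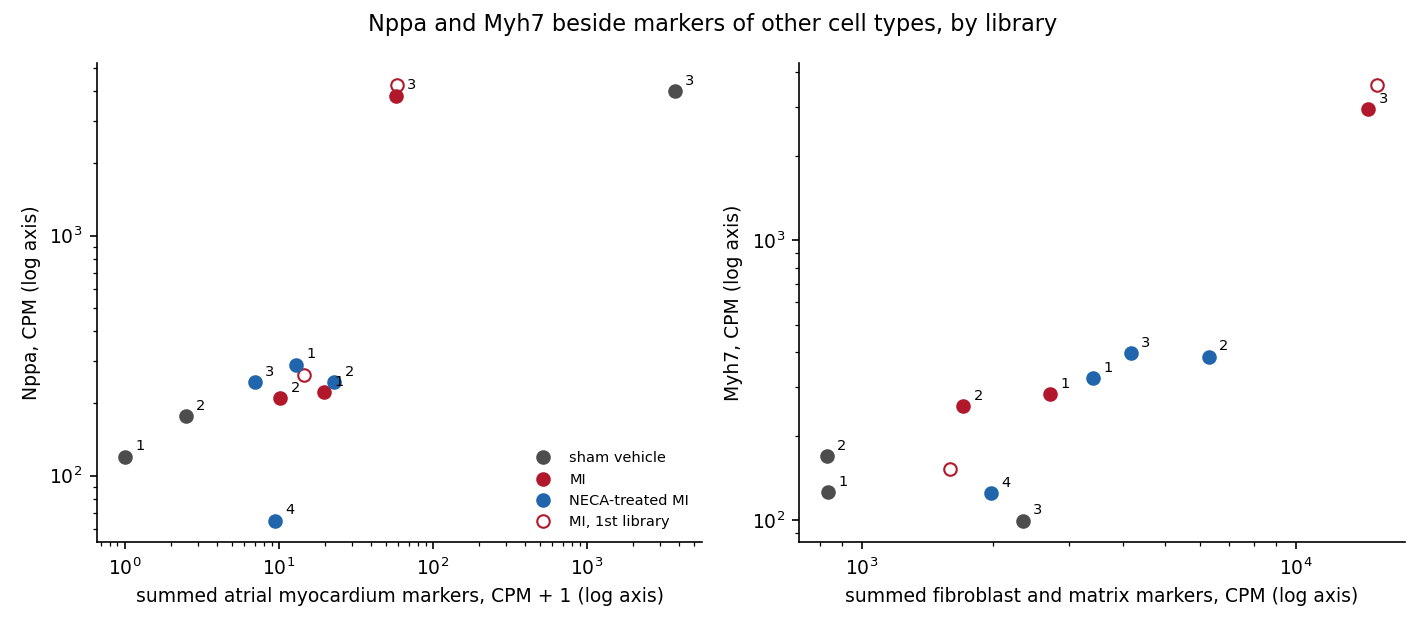
Left, Nppa CPM against the summed CPM of 6 atrial markers (plus 1); right, Myh7 CPM against the summed CPM of 9 fibroblast and matrix markers, both on log axes, 1 numbered point per mouse and open points for the deep 1st libraries. Sham vehicle mouse 3 is high for Nppa and for atrial markers (3741 CPM), while MI mouse 3 is high for Nppa at 57.3 CPM of atrial markers and for Myh7 at 14670 CPM of matrix markers.

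Among the contractile isoforms, Myh7 (ENSMUSG00000053093) encodes β-myosin heavy chain, the slow fetal motor that α-myosin (Myh6) replaces in adult mouse ventricle. Sham vehicle mice had 126, 169.9 and 99.8 CPM of Myh7. The MI mice had 282, 255 and 2940.1 CPM. The NECA-treated MI mice had 321, 385, 395 and 125 CPM. Every MI mouse was above every sham vehicle mouse, and 3 of 4 NECA-treated MI mice were too, while NECA-treated MI mouse 4 lay inside the sham range. MI mouse 3 stood 7.44 times above the next mouse, in the library that also had the most fibroblast and matrix markers (14670 CPM, all 9 detected). That library also had the lowest sum of cardiomyocyte markers (49051 CPM for 10 genes, against 59322 to 70537 in the other mice). Much of that sum is Myh6, the partner of Myh7, at 15503 CPM against 23897 to 29337 CPM in the other mice. Actc1, Ttn, Ryr2 and Pln were also lowest in MI mouse 3. Myl2 was highest there (6924 CPM), and Tnnt2, Tnni3, Myl3 and Mybpc3 were not lowest. The part of tissue composition in its Myh7 was not tested.

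The deep libraries changed part of that order. In MI mouse 3 the 1st library gave 3594 CPM of Myh7, but in MI mouse 2 it gave 152 CPM, which is within the sham vehicle range, where the 2nd library gave 255. Myh7 was 2.93 higher on the log2 scale in MI than in sham vehicle mice (SE 1.0002, unadjusted p = 0.0214, adjusted p = 0.354). NECA-treated MI was 1.80 below MI (log2 fold change -1.80, SE 0.87, adjusted p = 0.830) and 1.12 above sham vehicle (SE 0.91, adjusted p = 0.917). Without MI mouse 3 the value for MI against sham vehicle was 0.996 (SE 0.50, adjusted p = 0.775) and that for NECA-treated MI against MI was 0.13 (adjusted p = 0.999).

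Counting Myh7 as a share of Myh6 and Myh7 together removes the scaling between libraries. The share was 0.448%, 0.585% and 0.354% in sham vehicle mice. It was 1.09%, 1.06% and 15.9% in MI mice, with 95% Wilson intervals of 0.982% to 1.22%, 0.934% to 1.1957% and 15.4% to 16.5%. In NECA-treated MI mice it was 1.13%, 1.38%, 1.35% and 0.425%. The deep libraries also lay above the sham vehicle mice, at 0.972% for MI mouse 2 and 16.6% for MI mouse 3. Myh6 itself was at 28004, 28864 and 28051 CPM in sham vehicle mice, 25515, 23897 and 15503 CPM in MI mice and 27450.0 to 29337 CPM in NECA-treated MI mice, so in MI mouse 3 the numerator was at its highest and the partner at its lowest.

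The mean share was 6.03% ± 8.58 (SD, n = 3) in MI, 0.463% ± 0.116 (SD, n = 3) in sham vehicle and 1.07% ± 0.445 (SD, n = 4) in NECA-treated MI mice. In two-sided exact permutation tests over mice, MI against sham vehicle differed by 5.57 percentage points with p = 0.1, the smallest that 3 against 3 mice allow. NECA-treated MI against MI differed by -4.96 points (exact permutation p = 0.571) and NECA-treated MI against sham vehicle by 0.609 points (exact permutation p = 0.171, where 3 against 4 mice allow 0.0571 at best). Adjusted over the 6 isoform comparisons these were 0.514, 0.8 and 0.514. With no MI mouse 3 the share was 0.613 points higher in MI than in sham vehicle mice. RSEM divides reads between these near-identical genes, and in the shares computed from the authors' deposited TPM the 1st library of MI mouse 2 (0.510%) lay inside the sham vehicle range.

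Acta1 (ENSMUSG00000031972) encodes skeletal α-actin, the fetal partner of cardiac α-actin (Actc1). Its levels were 300.2, 435 and 464 CPM in sham vehicle mice and 272, 158 and 410.5 CPM in MI mice. NECA-treated MI mice had 307, 164, 190.0 and 399 CPM. By library totals the highest value was that of sham vehicle mouse 3, and the 3 groups overlapped. The scaling factors of the fits (TMM, 1.10 for sham vehicle mouse 3 and 0.930 for sham vehicle mouse 2) reverse the order of these mice. As a share of Acta1 and Actc1 counts it was 2.66%, 4.40% and 6.44% in sham vehicle mice, 3.98%, 2.36% and 6.49% in MI mice and 4.07%, 2.39%, 2.70% and 5.17% in NECA-treated MI mice.

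Sham vehicle mouse 3 and MI mouse 3 had like Acta1 shares, although their Myh7 shares were 0.354% and 15.9%. The highest Acta1 of the NECA-treated group was in mouse 4, the mouse with 573 CPM of skeletal muscle markers (Myh1 at 91.3 CPM), and MI mouse 2, with 138 CPM of these markers, had the lowest Acta1 of its group; the part of skeletal muscle in Acta1 was not tested. The log2 fold changes of Acta1 were -0.62 (SE 0.39, adjusted p = 0.565) for MI against sham vehicle, -0.02 (SE 0.36, adjusted p = 0.996) for NECA-treated MI against MI and -0.63 (SE 0.36, adjusted p = 0.839) in NECA-treated MI against sham vehicle. The share differed by -0.221, -0.697 and -0.917 points in the same order (exact permutation p = 0.8, 0.743 and 0.514, adjusted 0.8 each).

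**Figure D3:**
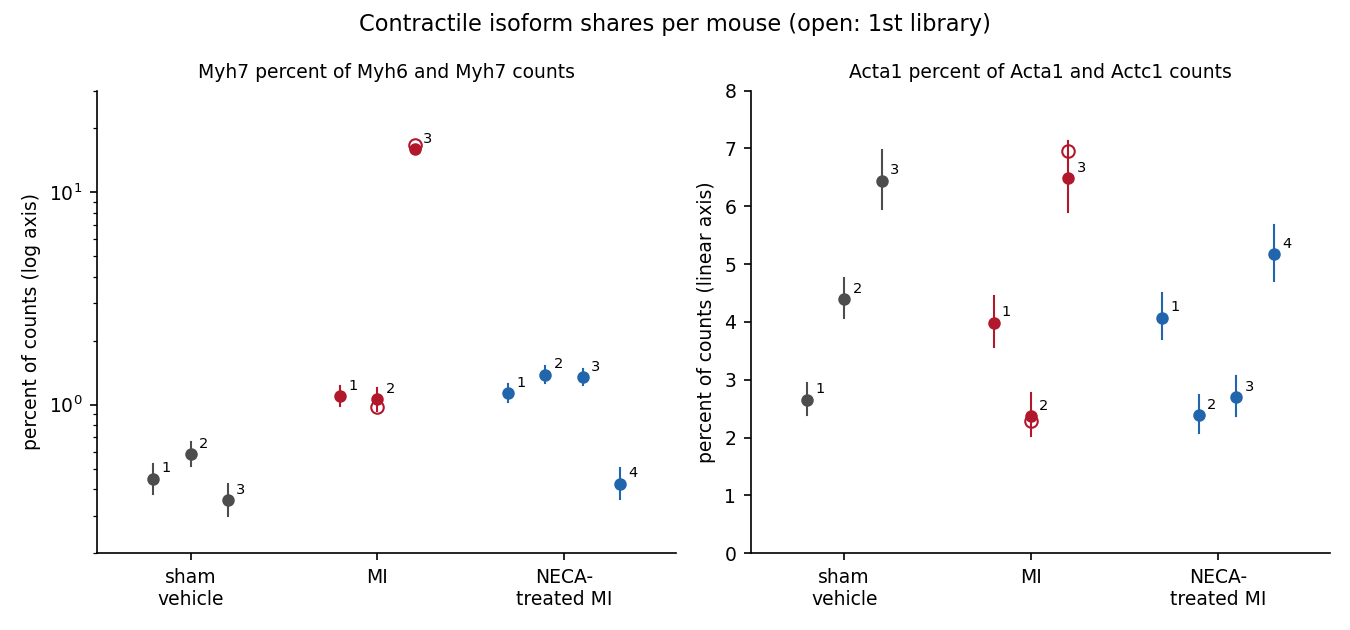
Myh7 as a percent of Myh6 and Myh7 counts (left, log axis) and Acta1 as a percent of Acta1 and Actc1 counts (right, linear axis) in each numbered mouse, with 95% Wilson intervals for counting error and open points for the deep 1st libraries. Myh7 shares of the MI mice (1.06% to 15.9%) lie above those of the sham vehicle mice (0.354% to 0.585%), whereas Acta1 shares overlap in the 3 groups.

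The stretch and Z-disc proteins were led by Ankrd1 (ENSMUSG00000024803), a titin-bound ankyrin repeat protein that also enters the nucleus under load. Ankrd1 was at 627, 1003 and 1109 CPM in sham vehicle mice and at 947, 1101 and 3019 CPM in MI mice. In NECA-treated MI mice it was at 1232, 1122, 898 and 704 CPM. MI mouse 3 was 2.45 times above the next mouse, and the other 9 mice spanned 627 to 1232 CPM with all groups interleaved. The log2 fold changes were 0.77 (SE 0.37, adjusted p = 0.439) for MI against sham vehicle, -0.71 (SE 0.34, adjusted p = 0.830) for NECA-treated MI against MI and 0.06 (SE 0.34, adjusted p = 0.997) in NECA-treated MI against sham vehicle. With no filter on low counts Ankrd1 was called for MI against sham vehicle (adjusted p = 0.0301), in a fit that called 191 genes. Without MI mouse 3 the difference was 0.18 for MI against sham vehicle (adjusted p = 0.916) and -0.11 for NECA-treated MI against MI (adjusted p = 0.999).

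Xirp1 (ENSMUSG00000079243) encodes an actin-binding Xin repeat protein of the intercalated disc, the end-to-end junction of heart muscle cells. It was the only member with its lowest level in MI mouse 3. The sham vehicle mice had 208, 271 and 225 CPM and the MI mice 190.1, 163 and 124 CPM. The NECA-treated MI mice had 212, 191, 199 and 197 CPM, a range within 1.11 times. All MI mice lay below all sham vehicle mice, and so did the deep libraries of MI mice 2 and 3, at 83.5 and 127 CPM.

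The log2 fold change of Xirp1 was -0.64 for MI against sham vehicle (SE 0.19, unadjusted p = 0.00286, adjusted p = 0.247), 0.33 for NECA-treated MI against MI (SE 0.18, adjusted p = 0.830) and -0.30 in NECA-treated MI against sham vehicle (SE 0.17, adjusted p = 0.839). For NECA-treated MI against MI the value was 0.63 with summed libraries (adjusted p = 0.341), 0.64 with the 1st libraries (adjusted p = 0.347) and 0.13 without MI mouse 3 (adjusted p = 0.999). When sham vehicle mouse 3 and MI mouse 3 were both left out, Xirp1 fell in MI by 0.55 (adjusted p = 0.0457) and in NECA-treated MI by 0.42 (adjusted p = 0.0380) against the remaining 2 sham vehicle mice. In those fits 69 and 242 genes were called.

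Xirp2 (ENSMUSG00000027022), the related Xin repeat protein, differed little between groups. It was at 346, 371 and 372 CPM in sham vehicle mice, 336, 282 and 508 CPM in MI mice and 393, 294, 394 and 354 CPM in NECA-treated MI mice. Its log2 fold changes lay between -0.08 and -0.02 in the 3 comparisons (SE 0.17 to 0.18, adjusted p = 0.933 to 0.989). MI mouse 3, lowest for Xirp1, was highest for Xirp2, at 1.29 times the next mouse. The 2 Xin genes ordered 27 of the 45 pairs of mice alike.

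Fhl1 (ENSMUSG00000023092), a LIM-domain protein that binds the titin spring, was at 56.6, 60.9 and 101 CPM in sham vehicle mice and at 72.8, 71.0 and 108 CPM in MI mice. NECA-treated MI mice had 93.8, 79.7, 84.7 and 91.3 CPM. By library totals the 2 highest mice were MI mouse 3 and sham vehicle mouse 3, and all 4 NECA-treated MI mice lay above the other sham vehicle and MI mice. Both parts of this order can change under the TMM factors of the fits. These were 1.13 for MI mouse 3, 1.10 for sham vehicle mouse 3, 1.06 and 0.970 for NECA-treated MI mice 2 and 4 and 0.94 for MI mouse 2. The log2 fold changes were 0.13, 0.09 and 0.22 for MI against sham vehicle, NECA-treated MI against MI and NECA-treated MI against sham vehicle (SE 0.18, 0.17 and 0.17, adjusted p = 0.814, 0.946 and 0.887).

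Rcan1 (ENSMUSG00000022951) inhibits the phosphatase calcineurin and is itself a target of the calcineurin and NFAT pathway. Sham vehicle mice had 38.6, 59.4 and 44.0 CPM and MI mice 60.4, 52.5 and 105 CPM. NECA-treated MI mice had 37.4, 51.2, 46.2 and 45.2 CPM. All 4 NECA-treated MI mice lay below all 3 MI mice and within or just under the sham vehicle range. The log2 fold change was -0.65 for NECA-treated MI against MI (SE 0.20, unadjusted p = 0.00406, adjusted p = 0.793), 0.51 for MI against sham vehicle (SE 0.21, unadjusted p = 0.0283, adjusted p = 0.369) and -0.14 in NECA-treated MI against sham vehicle (SE 0.21, adjusted p = 0.961). Without MI mouse 3 it was -0.38 for NECA-treated MI against MI (adjusted p = 0.999) and 0.24 for MI against sham vehicle (adjusted p = 0.871), and the 1st library of MI mouse 2, at 45.1 CPM, fell inside the NECA-treated range.

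Gdf15 (ENSMUSG00000038508) encodes a secreted hormone of the TGF-β superfamily that is induced by cell stress. It did not pass the filter on low counts, with 0, 2 and 1 counts in sham vehicle mice, 1, 1 and 5 in MI mice and 1, 4, 1 and 0 in NECA-treated MI mice. MI mouse 3 had the most counts, equal to 5.21 CPM. The deep libraries gave firmer levels of 0.781 CPM (24 counts) for MI mouse 2 and 8.40 CPM (228 counts) for MI mouse 3, and no other mouse was sequenced to that depth. With no filter, edgeR gave log2 fold changes of 1.33 (SE 1.1979, adjusted p = 0.733), -0.78 (SE 1.06, adjusted p = 0.892) and 0.55 (SE 1.18, adjusted p = 0.981) for MI against sham vehicle, NECA-treated MI against MI and NECA-treated MI against sham vehicle. No difference between groups was detectable at this depth.

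Overlap of groups was counted on CPM after TMM scaling. Counted over the 9 tested members, 2 had groups that did not overlap in MI against sham vehicle, Myh7 above and Xirp1 below, beside 14.3% of all tested genes. In NECA-treated MI against MI 1 member did not overlap, Rcan1, beside 7.49% of genes. In NECA-treated MI against sham vehicle no member did, beside 8.56%. The median log2 fold change over the 9 members was 0.13, -0.65 and -0.14 in these 3 comparisons, against -0.01 over all tested genes in each. Without MI mouse 3 the median was -0.13 in MI against sham vehicle and 0.13 in NECA-treated MI against MI.

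**Figure D4:**
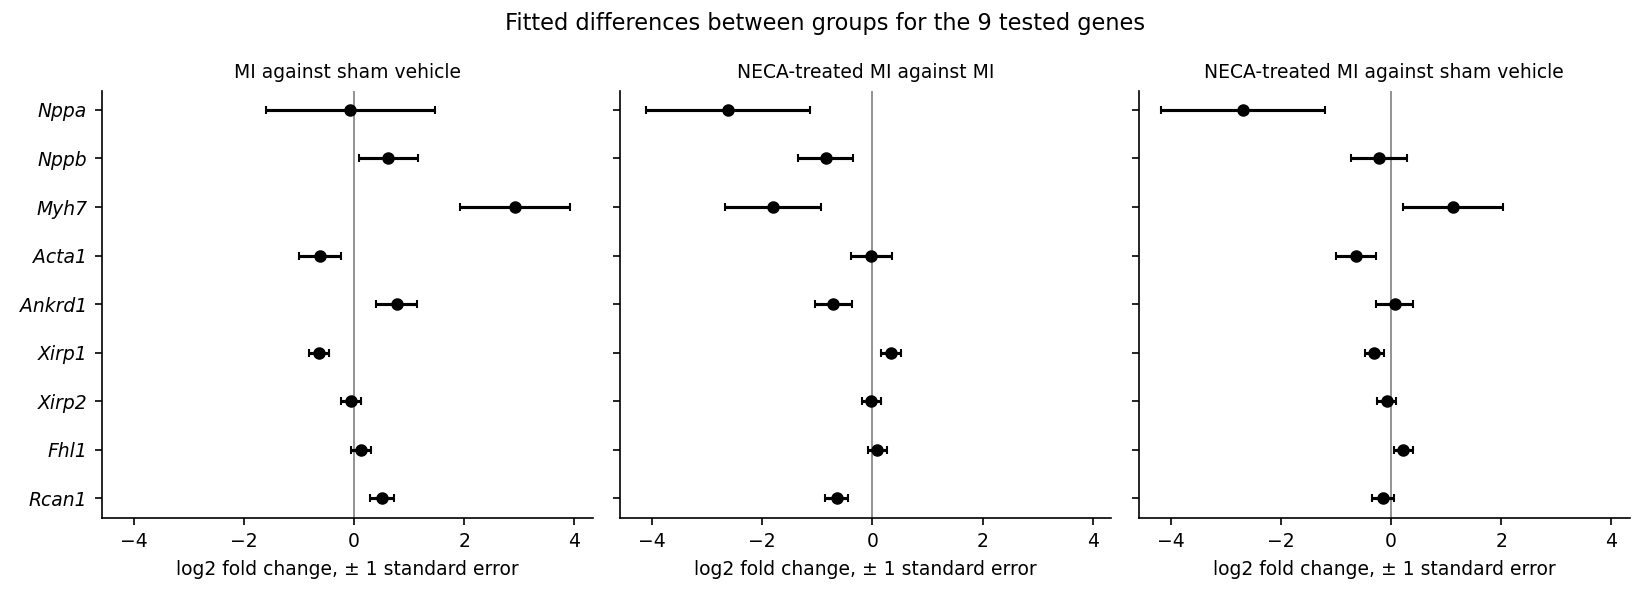
Fitted log2 fold change of the 9 tested genes (points, ± 1 standard error) in the 3 comparisons over 3, 3 and 4 mice. Nppa and Myh7 have standard errors of 0.87 to 1.54, and Xirp1, Xirp2, Fhl1 and Rcan1 of 0.17 to 0.21.

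The spread between mice of a group set what could be seen for each gene. The SDs given here are of log2 CPM after TMM scaling, with a prior count of 2, and not of the CPM by library totals listed above. The SD of Nppa was 2.61 in sham vehicle, 2.27 in MI and 0.96 in NECA-treated MI mice, larger than that of 99.0% or more of all tested genes in each group. Myh7 had an SD of 1.87 in MI mice and 0.74 in NECA-treated MI mice, against 0.49 in sham vehicle mice, and Nppb had 0.92, 0.68 and 0.22 in the same order. The median gene had an SD of 0.26, 0.31 and 0.24 in sham vehicle, MI and NECA-treated MI mice. Xirp1 was the steadiest member among NECA-treated MI mice, with an SD of 0.09, and Xirp2 among sham vehicle mice, with 0.12. Within the NECA-treated group, mouse 4 was lowest for Nppa, Nppb, Myh7 and Ankrd1 and highest for Acta1.

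Members were alike to different degrees in how they ordered the 45 pairs of mice. Nppa and Nppb ordered 38 pairs alike, Nppa and Fhl1 37, and Nppa and Ankrd1 36. Gdf15 is left out here, since mice with 1 count each differ in CPM only by their library totals. Xirp1 ordered only 11 pairs as Rcan1 did and 15 as Myh7 did. Myh7 and Acta1, both fetal isoforms, ordered 16 alike. These are descriptions over 10 mice, in which MI mouse 3 takes part in 9 of the pairs.

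Among 5495 other genes with a mean of at least 20 CPM, the closest to Xirp1 was Bckdhb, a subunit of the branched-chain ketoacid dehydrogenase, which ordered all 45 pairs the same way, followed by Rps6ka2 with 43. Nppa was most like Rpl3 and Rrbp1 (42 pairs each), Nppb like Ap2b1 and Dnajc8 (41 each), Myh7 like Xpo6 (41) and Ankrd1 like Rps18 (43) and Sfrp1 (42). For Acta1 they were Slc25a23 (41) and Ldha (39), for Xirp2 Atp6ap1 and Zcrb1 (40 each) and for Fhl1 Timp3 and Zfc3h1 (43 each). For Rcan1 they were S100a1 and Mlip (39 each). The median gene ordered 22 to 26 pairs like a member, and the genes named are the best of many.

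The pathways around the members were read from 7 lists of 81 genes, of which 68 were tested. None of the 68 passed in any comparison by edgeR's test, and 12, 6 and 4 had an unadjusted p under 0.05 in MI against sham vehicle, NECA-treated MI against MI and NECA-treated MI against sham vehicle, where 1139, 577 and 573 of all 9505 genes had one. The smallest adjusted p were 0.234, 0.793 and 0.652. The values below are log2 fold changes with standard errors for the genes of smallest p in a list.

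Among 9 tested genes that process, receive or break down natriuretic peptides, the median was -0.19 in MI against sham vehicle and 0.09 in NECA-treated MI against MI. Furin, a protease that matures the BNP precursor, had -0.34 (SE 0.17) and the clearance receptor Npr3 -1.11 (SE 0.66) in the first comparison. Npr3 was at 88.8 CPM in sham vehicle mouse 3, the mouse with atrial markers, and at 13.5 to 25.7 CPM elsewhere. Corin, the protease that activates atrial natriuretic peptide, had 0.24 (SE 0.21) and the protease Pcsk6 0.30 (SE 0.17) in NECA-treated MI against MI. Corin was lowest in MI mouse 3, at 85.4 CPM, where its substrate Nppa was at 3831 CPM.

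In the list of adult and alternative contractile isoforms, which also holds the calcium pump gene Atp2a2, the 7 tested genes had a median of -0.45 for MI against sham vehicle. Actc1 had -0.62 (SE 0.22, unadjusted p = 0.00937, adjusted p = 0.276) and Myh6 -0.45 (SE 0.21, adjusted p = 0.408). In NECA-treated MI against MI the median was 0.12, Myh6 had 0.39 (SE 0.20) and the calcium pump Atp2a2 0.46 (SE 0.26, adjusted p = 0.833). Atp2a2 was at 3538 CPM in MI mouse 3 and at 8176 to 9931 CPM in the other 9 mice.

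Of 12 partners of titin and the Z-disc, the actin crosslinker Flnc had -0.65 (SE 0.18, unadjusted p = 0.00195, adjusted p = 0.234) and Fhl2, a relative of Fhl1, -0.46 (SE 0.21) for MI against sham vehicle, with a list median of -0.18. Flnc had 0.40 (SE 0.17) and Nrap 0.28 (SE 0.17) for NECA-treated MI against MI, with a list median of 0.12. Among 12 calcineurin and NFAT genes, with medians of 0.06 and -0.01, Rcan2, the relative of Rcan1, had -0.48 (SE 0.20) and the kinase Gsk3b -0.30 (SE 0.20) in the first comparison. The kinase Dyrk1a had 0.35 (SE 0.19) and the calcineurin subunit Ppp3cc -0.36 (SE 0.27) in the second.

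Of 13 transcription factors of the hypertrophic programme, the cardiac factor Gata4 had -0.54 (SE 0.17, unadjusted p = 0.00505, adjusted p = 0.247) and the serum response factor coactivator Myocd -0.74 (SE 0.26) for MI against sham vehicle. For NECA-treated MI against MI, Gata4 had 0.39 (SE 0.16) and Nkx2-5, a homeobox factor of heart muscle, 0.61 (SE 0.20, unadjusted p = 0.00662, adjusted p = 0.793). The list medians were -0.31 and 0.19. Only 3 of the 10 integrated stress response and p53 genes listed beside Gdf15 could be tested. Atf4 had 0.22 (SE 0.19) and Trp53 0.12 (SE 0.27) for MI against sham vehicle, and Atf4 had -0.32 (SE 0.18) and Cdkn1a -0.27 (SE 0.34) for NECA-treated MI against MI.

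The list named other transcripts raised in strained ventricle (12 genes) had the largest median of the 7 lists for MI against sham vehicle, 1.06, and -0.61 in NECA-treated MI against MI. The lists were drawn up with earlier results of these data known, so this rank is not a test. Ccn1, a matricellular target of YAP and TEAD, had 0.98 (SE 0.28, unadjusted p = 0.00192, adjusted p = 0.234) and the protease inhibitor Timp1 2.63 (SE 1.12, adjusted p = 0.413) in the first. Ccn1 had -0.79 (SE 0.25, adjusted p = 0.793) and the muscle kinase Nmrk2 -0.88 (SE 0.42, adjusted p = 0.812) in the second. MI mouse 3 was highest for all 3, with 66.7 CPM of Ccn1, 61.5 CPM of Timp1 and 20.8 CPM of Nmrk2. Summed over the list, the other MI mice had 326 and 360 CPM, inside the sham vehicle range of 303 to 488 CPM. MI mouse 3 had 1254 CPM of the list. The same mouse was also highest for all 9 fibroblast and matrix markers (Col3a1 at 4407 and Postn at 1178 CPM) and all 9 macrophage markers (Lyz2 at 574 and Fcer1g at 30.2 CPM), and the part of those cells in the members' levels was not tested. Against sham vehicle, all 9 fibroblast and matrix markers had positive log2 fold changes in MI mice (median 2.06), as did all 9 in NECA-treated MI mice (median 1.98), and none passed.

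The repeat libraries of MI mice 2 and 3 show how far a member's value depended on the library. In MI mouse 3 the ratio of the 2nd to the 1st library was between 0.818 (Myh7) and 1.11 (Rcan1) for the 9 tested members. Its 95% counting interval lay below equality for Myh7 (0.788 to 0.849), Nppa (0.871 to 0.9305) and Xirp2 (0.789 to 0.947). The intervals of the other tested members spanned equality in that mouse. In MI mouse 2 it ranged from 0.687 for Nppb (95% counting interval 0.540 to 0.862) to 1.67 for Myh7 (1.47 to 1.90) and 1.95 for Xirp1 (1.65 to 2.29). The intervals of Nppa (0.799, 0.692 to 0.918) and Ankrd1 (0.870, 0.818 to 0.925) also lay below equality in MI mouse 2. Those of Acta1, Xirp2, Fhl1 and Rcan1 spanned it. Over both mice none of the 10 members differed between the libraries in edgeR's test with the mouse as a term, where 0.17% of 14710 genes did (25), and no member had an unadjusted p under 0.05. This test looks only for a shift common to both mice. It cannot show shifts of opposite direction, such as those of Myh7 (1.67 in MI mouse 2 and 0.818 in MI mouse 3). Xirp1, the member of smallest p, was 0.43 higher in the 2nd library on the log2 scale (SE 0.30, adjusted p = 0.9998), and the sparse Gdf15 had -0.48 (SE 0.82).

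**Figure D5:**
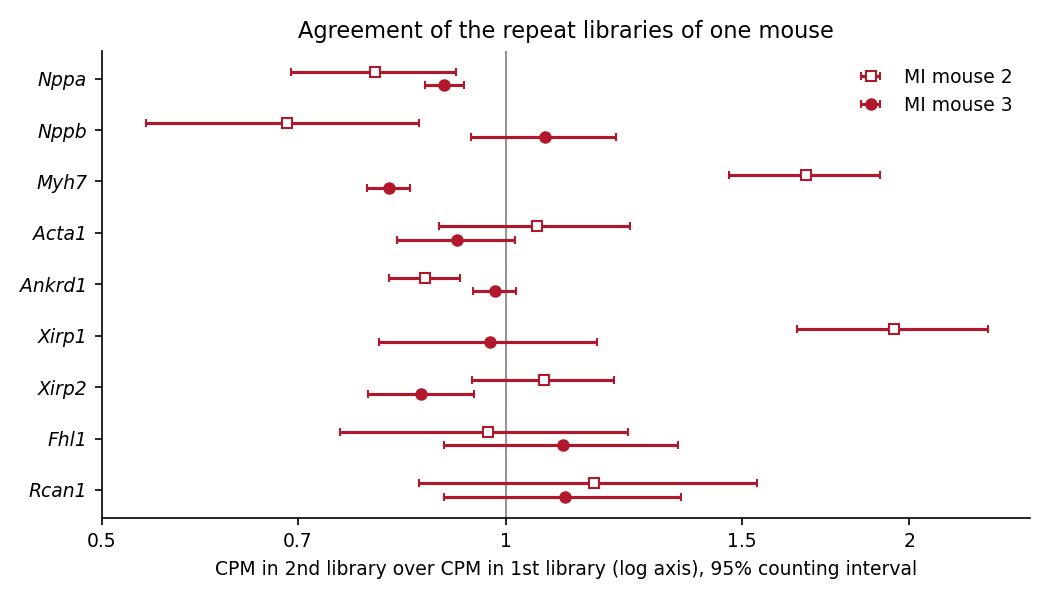
Ratio of CPM in the 2nd library to CPM in the deep 1st library of the same mouse (log axis) for 9 genes, with 95% counting intervals, squares for MI mouse 2 and circles for MI mouse 3. Ratios of MI mouse 3 lie between 0.818 and 1.11, and MI mouse 2 departs from 1 most for Xirp1 (1.95), Myh7 (1.67) and Nppb (0.687).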

How the data were processed

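Total RNA of heart muscle was sequenced from its 3′ ends with a modified CEL-Seq2 protocol and 9 PCR cycles, per the labels' protocols. FastQC 0.11.9, STAR, RSEM and the build GRCm39 are named by the submitters' processing notes. No source used here gives the annotation release, the strand setting or whether molecular identifiers were counted. The authors deposited estimated counts per gene, rounded to whole numbers, and a table of log2(TPM + 1). TPM divides by length, although 3′ reads do not grow with length. RSEM splits reads between near-identical genes, so Myh6 and Myh7, and Acta1 and Actc1, are uncertain.

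Of 57054 rows, 56647 had a value in every library, and 52029 matched a gene symbol. For MI mice 2 and 3 the 2nd library was used, of a depth like that of the other mice, and sums with the deep 1st library, which made up 96.9% and 96.6% of the counts, were an alternative. Counts were filtered (filterByExpr), scaled (TMM) and tested with edgeR 4.0.16 (robust quasi-likelihood, two-sided, 1 fit over 10 mice) in R 4.3.3, with Benjamini-Hochberg adjustment over all tested genes and 0.05 as the threshold. Shares of isoforms were tested by exact permutation over mice (scipy 1.17.1), adjusted over 6 comparisons. CPM divides by library totals, except that counts of overlapping groups and SDs of log2 CPM used CPM after TMM scaling. Alternatives used DESeq2 1.42.0, limma 3.58.1, other scalings, libraries and filters, a block and leaving out mice. Intervals and floors cover counting error only. The labels call samples separate mice, without stating how tissue was taken.

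The members, gene lists and tests were chosen with earlier results of these data known. Of each pathway list, genes that passed were to be named and, where fewer than 2 did, the 2 of smallest p in MI against sham vehicle and the 2 in NECA-treated MI against MI. Of marker lists, the most abundant gene and the gene with the largest ratio of highest to median library are named, and the further markers given beside Nppa were chosen after their values were seen. For each member but Gdf15, whose counts are too low for an order, the 2 genes that ordered the pairs of mice most alike are named, except 1 gene that is not reported here. Ddit3 matched 2 rows and was left out of its list.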

Additional observations from a re-analysis of the deposited data

How the results depend on the processing

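Over 27 log2 fold changes of members and 498 alternatives to them, 461 kept direction and side of the threshold, 34 changed sign (12 results) and 3 passed it, with the cause not tested unless fewer mice or more genes define the alternative. The 3 were Ankrd1 in MI against sham vehicle with no filter on low counts, and Xirp1 in MI and in NECA-treated MI against sham vehicle with sham vehicle mouse 3 and MI mouse 3 left out together, so 1 member was called in each of those fits.

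MI against sham vehicle called 7 genes. It called 15 with libraries summed, 12 with the 1st library, 191 with no filter, 0 with limma (901 with an unadjusted p under 0.05), 0 with only the 2 groups (728 likewise), 12 with the replicate block, 69 without sham vehicle mouse 3 and MI mouse 3, 23 without sham vehicle mouse 3 and NECA-treated MI mouse 4 (chosen after seeing the data), and 0 to 50 leaving out single mice. NECA-treated MI against MI called 0, or 1 with summed or 1st libraries, 8 with no filter and 0 to 2 leaving out mice. NECA-treated MI against sham vehicle called 1, or 0 with summed or 1st libraries (411 and 408 likewise), 4 without TMM, 43 with no filter, 6 with DESeq2, 0 with limma (475 likewise), 7 with 2 groups, 6 with the replicate block, 242 and 5 without the same pairs of mice, and 0 to 7 leaving out single mice.

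Deviations from the group means had correlations of -0.23 to 0.19 between same-numbered mice and -0.27 to 0.27 between differently numbered mice. With so few mice per group, no pairing by number was seen, and this check does not show that there was none. Under the replicate block Nppa in MI against sham vehicle was 0.15 and Nppb in NECA-treated MI against sham vehicle 0.020. Nppa in MI against sham vehicle was also 0.031 with summed and 0.033 with 1st libraries, 0.35 with limma, 0.44 without sham vehicle mouse 3 and MI mouse 3 and 2.97 without sham vehicle mouse 3 and NECA-treated MI mouse 4. Xirp2 there was 0.051 without TMM and 0.14 with limma, whose median over all genes was 0.098. Without sham vehicle mouse 3 and MI mouse 3, Nppb in MI against sham vehicle was -0.11, Nppa in NECA-treated MI against sham vehicle 0.35, and in NECA-treated MI against MI Myh7 was 0.13, Acta1 0.26 and Xirp2 0.17, with the Acta1 share at 0.407 points, and 0.0548 points against sham vehicle. Without sham vehicle mouse 3 and NECA-treated MI mouse 4, NECA-treated MI against sham vehicle gave 0.65 for Nppa and 0.030 for Nppb.

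Leaving out single mice, MI against sham vehicle ranged from -2.59 to 2.97 for Nppa, -0.13 to 0.91 for Nppb, -0.25 to 0.062 for Xirp2, -0.0092 to 0.33 for Fhl1 and -1.32 to 0.751 points for the Acta1 share. NECA-treated MI against MI ranged from -2.26 to 0.13 for Myh7, -0.31 to 0.27 for Acta1, -0.14 to 0.17 for Xirp2 and -1.65 to 0.407 points for the Acta1 share. NECA-treated MI against sham vehicle ranged from -3.21 to 0.35 for Nppa, -0.44 to 0.0085 for Nppb, -0.099 to 0.19 for Ankrd1, -0.15 to 0.023 for Xirp2, -0.28 to 0.092 for Rcan1 and -1.84 to 0.0548 points for the Acta1 share. Depth limits Gdf15 most, with at most 5 counts in a library used for the main comparisons.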
